A study of Homo sapiens with 4 samples.

Results

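Cytosolic ribosomal protein genes were examined in SK-N-BE(2) cells, a MYCN-amplified human neuroblastoma line, after knockdown of SAPCD2. Members were chosen by name. They are the protein-coding genes with an RPL or RPS symbol followed by a digit or, for RPL, by P, plus RPSA and FAU, leaving out the RPS6 kinases, RPS27L and read-through names. Of 88 names, 87 were present among 64252 genes of the count table, and RPS4Y2 was not analysed here. RPL10L, an intronless copy of RPL10, had 0 counts in all 4 libraries. The remaining 86 genes passed the filter on low counts and were tested among 18779 genes, 52 with large-subunit names and 34 with small-subunit names. The rule also takes in RPS19BP1, which encodes a protein that binds RPS19, and RPL7L1, which encodes a factor of large-subunit assembly.

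The sh-Scb group carried a scrambled shRNA and the sh-SAPCD2 group an shRNA against SAPCD2, with 2 libraries of total RNA in each group. Both groups were made by lentiviral transduction and puromycin selection, so selection and integration are common to them. The labels do not give which of the study's shRNAs was used, nor whether the libraries of a group came from separate cultures, and p-values here measure the spread between these libraries, which may be technical. In bulk RNA, fewer cells of a type and less RNA per cell cannot be told apart.

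The libraries held 25347900 to 31850997 counts, and 3 counts, taken as the floor, equaled 0.0942 to 0.118 CPM, which are counts scaled to a common library size. Values below are CPM with the TMM factors of edgeR unless a unit per length is given, and in a run of 4 values the first pair are sh-Scb replicates 1 and 2 and the second pair sh-SAPCD2 replicates 1 and 2. A gene was called higher or lower at an adjusted p under 0.05 (edgeR's quasi-likelihood test, with p-values adjusted by the method of Benjamini and Hochberg across tested genes), and a differentially expressed gene (DEG) also needed an absolute log2 fold change over 1. SAPCD2 itself measured 83.6, 82.2, 35.4 and 52.5 CPM, a log2 fold change of −0.91 (SE 0.19, adjusted p = 0.0206), so both knockdown libraries lay under the controls and replicate 1 lay lowest. Of the neuroblastoma markers, MYCN measured 3235, 3178, 5904 and 7091 CPM, while 1 of 9 listed neuroblastoma markers was called higher and 3 were called lower.

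Each human ribosome joins a large subunit and a small subunit, built on ribosomal RNA from a set of proteins that are needed in nearly equal amounts. Their mRNAs are short and abundant, and most begin with a C followed by an unbroken run of pyrimidines, the 5′ terminal oligopyrimidine (TOP) tract, through which mTORC1 and the RNA-binding protein LARP1 control their translation. A few members have paralogs that can take the same place in the ribosome and that differ in tissue distribution. In neuroblastoma, MYCN is known to drive transcription of ribosome biogenesis genes, and RPL5 and RPL11 link ribosome assembly to MDM2 and p53.

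The start sites show what these mRNAs share and where a paralog departs from it. RefSeq start sites of GRCh38.p14 matched 69 members. A stretch of at least 7 pyrimidines beginning with C lay within 10 bases of a start in 53 of them (76.8%), compared with 14.8% of all 15345 protein-coding genes with a start and 15.6% of the other tested ones (10929 genes). In every gene only the 10 bases on each side of a start were searched, so a stretch running past that edge was counted in part. Capitals below mark the longest such stretch within the searched bases. The windows run from 12 bases before the start to 18 bases from it on the sense strand. They pair a paralog with its partner, where the ratio between partners changed, and then show members with log2 fold changes from 0.55 to 0.81 (RPLP1, RPL13 and RPS28) and with a value near 0 (RPS6, RPS24).
RPL22: ttcgctcaCCTCCCTTTCTaactccgctgc
RPL22L1: ggccgtagCTTCCTCTCTgctctcgcggcc
RPL26: cagcgtgtagttCTCTTCCCTTttgcggcc
RPL26L1: ggggcggcggccacaaaCCCgcaggcacgc
RPL36A: gcctcgcggtttCTTTCTTTCCgcgccgat
RPL36AL: tttCTTCCCTTTCCTgttaggcgagagctg
RPS28: ccgaagcacgtgaCTCCTCTCCgccagacc
RPL13: cggggccgCTTCCTTTCCgctcggctgttt
RPLP1: taggcgcgagagCCCCTTTCCTcagctgcc
RPS6: cggaagttggCCCTCTTTTCCgtggcgcct
RPS24: cgaatcgtggttCTCTTTTCCTccttggct

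The windows lie at chr1:6199578-6199607 (minus strand) for RPL22, chr3:170870178-170870207 (minus) for RPL22L1, chr17:8383176-8383205 (minus) for RPL26 and chr5:172958868-172958897 (plus) for RPL26L1. Those of the RPL36A pair lie at chrX:101390999-101391028 (plus) and, for RPL36AL, at chr14:49620609-49620638 (minus). RPS28 lies at chr19:8321484-8321513, RPL13 at chr16:89560670-89560699, RPLP1 at chr15:69452806-69452835 and RPS24 at chr10:78033851-78033880, all on the plus strand, and RPS6 at chr9:19380219-19380248 on the minus strand. RPL26L1 is the window among these with no stretch of 7. RPS6 and RPS24, whose levels hardly differed, carry a marked stretch at least as long as those of RPL13 or RPLP1. In RPL26, RPLP1 and RPS24 the mark stops at the searched edge, and further pyrimidines follow in the printed bases. Other members with a matched start had log2 fold changes between those of RPLP1 and RPS28. Of these, RPL18, RPL37A and RPS21 had a stretch of at least 7, and RPL27 (0.60) and RPS29 (0.68) did not. The 53 tested members with a stretch at the start nearest to their canonical transcript showed a median of 0.31 for the log2 fold change. The 15 without it in the searched bases showed 0.15. Among these 15, RPL4 and RPL9 carry a stretch that reaches 7 only with bases past the searched edge, so this split depends on that edge. In the 300 bases around any RefSeq start of a gene, the E-box CACGTG, a palindrome that MYC family proteins can bind, stood in 7.25% of members, in 10.9% of all protein-coding genes and in 12.7% of other tested ones. At the start nearest to the canonical transcript 4 members held it. The motif CCGGAAG on either strand, a core recognised by ETS factors, stood in 33.3% of members, 16.7% of all protein-coding genes and 21.5% of other tested ones. TATAAA on either strand stood in 10.1% of members, between 12.4% of all protein-coding genes and 8.64% of other tested ones.

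Members together took 6.35% and 6.19% of all counts in sh-Scb replicates 1 and 2, and 6.44% and 8.08% in sh-SAPCD2 replicates 1 and 2. The second knockdown library stood apart, and the first lay just above the controls. The Wilson 95% intervals were narrow, 8.07 to 8.09% for the highest library, and they cover counting error only. Group means were 6.27% ± 0.111 (SD, n = 2) and 7.26% ± 1.16 (SD, n = 2), a difference of 0.995 percentage points with an exact two-sided permutation p of 0.333, the smallest that 2 against 2 libraries allow, so this design cannot reach 0.05. Without sh-SAPCD2 replicate 2 the difference was 0.175 percentage points, and without replicate 1 it was 1.82.

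Large-subunit genes held 3.86, 3.77, 4.02 and 4.97% of counts, with both knockdown libraries above both controls. Small-subunit genes held 2.48, 2.42, 2.42 and 3.11%, with sh-SAPCD2 replicate 1 between the controls. Counts of large-subunit over small-subunit genes stood at 1.55, 1.56, 1.66 and 1.60, so this ratio was higher in both knockdown libraries. Genes encoded by mitochondrial DNA went the other way, with shares of 9.58, 10.07, 9.07 and 7.28%, and the nuclear genes of mitochondrial ribosomal proteins held 0.351, 0.355, 0.335 and 0.387%. Taking the mitochondrially encoded genes out of the total left a difference of 0.951 percentage points for the members.

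**Figure D1:**
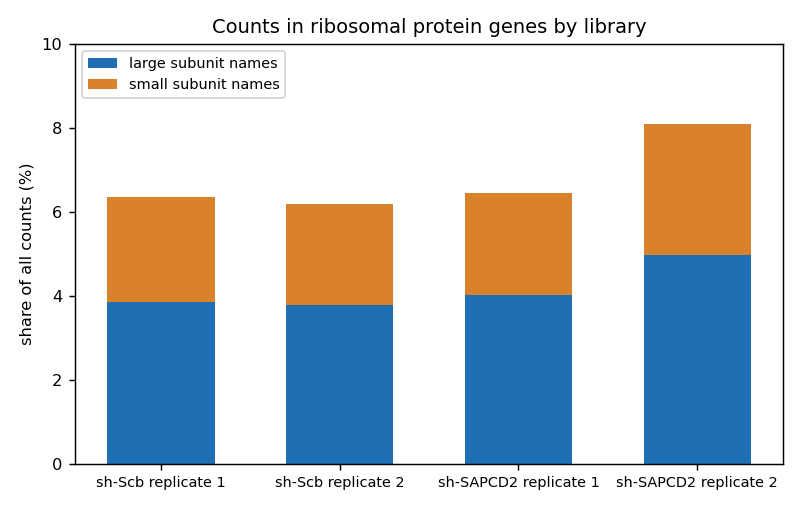
Share of all counts (%) in ribosomal protein genes in each library, as bars from 0 split into large-subunit and small-subunit names. The bars of sh-Scb replicates 1 and 2 and sh-SAPCD2 replicate 1 end at 6.35, 6.19 and 6.44%, and that of sh-SAPCD2 replicate 2 ends at 8.08%.

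Gene by gene, values leaned upward in knockdown cells while few members passed the test. The median log2 fold change of the 86 members was 0.27 (quartiles 0.076 and 0.41), compared with 0.017 over all tested genes, and 73 members had a value above 0 (84.9%, against 51.2% of all tested genes). At an adjusted p under 0.05, 4 members were called higher, RPL3L, RPS9, RPS19BP1 and RPL36AL, and 1 was called lower, RPL22L1. That is 5.81% of members, where 24.8% of all tested genes were called (12.4% higher and 12.5% lower). RPL3L and RPS9 were DEGs with higher expression (background 4.69%), and 0 members were lower DEGs (background 5.15%).

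Leaving out the paralog variants, RPS19BP1 and RPS9, a choice made after the values were seen, edgeR called 0 of 77 genes, 22 of which had an unadjusted p under 0.05. Of the 86 members 28 did so, and 39.4% of all tested genes. The count of calls depended on the libraries. Without sh-SAPCD2 replicate 1, 69 members were called higher (background 22.1%) and 3 lower (20.2%). Without sh-SAPCD2 replicate 2, 31 were called higher (background 17.9%) and 11 lower (17.7%), with a median of 0.058. In these fits the lone knockdown library is assumed to vary as the control pair does. DESeq2, the tool named in the study's methods, called 18 members higher (background 16.5%) and 1 lower (13.5%).

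**Figure D2:**
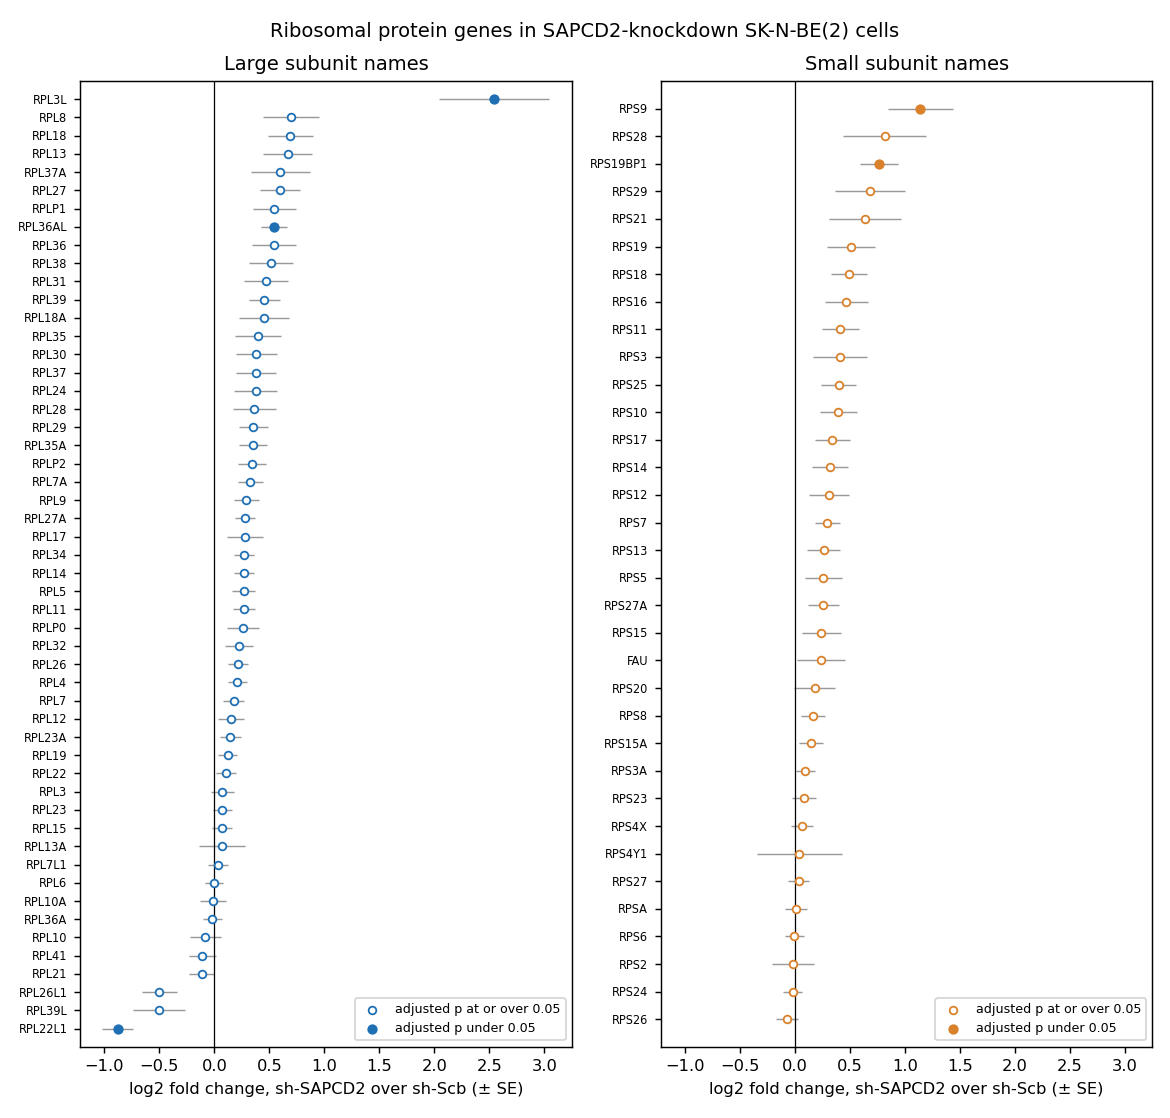
Log2 fold change (sh-SAPCD2 over sh-Scb) of the 86 tested ribosomal protein genes with the standard error of edgeR as bars, for large-subunit names on the left and small-subunit names on the right; filled points have an adjusted p under 0.05. Most points lie to the right of 0, and the 5 filled points are RPL3L, RPL36AL and RPL22L1 on the left and RPS9 and RPS19BP1 on the right.

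Levels in the knockdown libraries lay above both controls for 53 members (61.6%, against 33.5% of all tested genes) and below both for 3 (3.49%, against 33.4%), which were the paralogs RPL22L1, RPL26L1 and RPL39L. By subunit, 38 of 52 large-subunit genes but 15 of 34 small-subunit genes lay above both controls in both knockdown libraries. The median log2 fold changes of the subunits were 0.27 and 0.26. In 15 members (17.4%, against 6.69% of all tested genes) sh-SAPCD2 replicate 1 lay under both controls and replicate 2 above both. These were RPSA, RPS2, RPS3, RPS4X, RPS4Y1, RPS15, RPS20, RPS23, RPS27, FAU, RPL3, RPL10, RPL10A, RPL13A and RPL41, of which 10 have small-subunit names. In 3 members (3.49%, against 6.18% of all tested genes), RPS6, RPS24 and RPL6, the order was turned, with replicate 1 above and replicate 2 below the controls.

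The knockdown libraries differed from each other more than the controls did. Replicate 2 minus replicate 1 of sh-SAPCD2 had a median of 0.36 on the log2 scale and was above 0 in 79 of 86 members, with a range from −0.23 in RPL21 to 1.28 in RPS28. The same difference had a median of −0.024 between the sh-Scb libraries, and of 0.0059 over all tested genes between the sh-SAPCD2 libraries. Against the mean of the controls, sh-SAPCD2 replicate 1 had a member median of 0.057 with 64 of 86 above 0, and replicate 2 had 0.45 with 76 of 86 above 0.

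**Figure D3:**
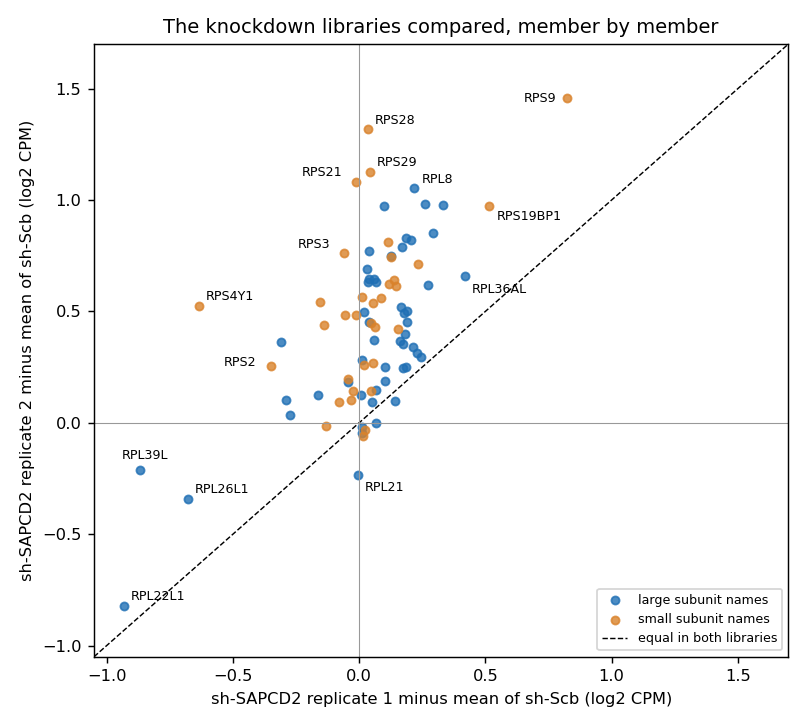
Each point is a ribosomal protein gene (RPL3L is left out because it lies beyond the axes), with the log2 CPM of sh-SAPCD2 replicate 1 minus the mean of sh-Scb on the x axis and the same for replicate 2 on the y axis. Most points lie over the dashed line of equal values, RPS28, RPS29 and RPS21 lie near 0 on the x axis, and RPL22L1 lies near the line at the lower left.

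Levels per length, in CPM per kilobase of the median annotated transcript, ranged widely among members that sit side by side in the same particle. The length used enters this range. RPL14, with a sh-Scb mean of 687 CPM and a median annotated length of 7072 bases, came to 97.1 CPM per kilobase. By the mean of the group means, the 6 highest were RPS3A, RPLP1, RPS2, RPL6, RPLP0 and RPL4, with sh-Scb means of 2655, 2112, 2531, 2486, 2223 and 2194 CPM per kilobase and sh-SAPCD2 means of 2836, 3082, 2502, 2478, 2663 and 2537. Within a group the order differed, since RPS24 (2205) lay above RPL4 and RPLP1 in sh-Scb and RPS3 (2636) lay above RPL4, RPS2 and RPL6 in sh-SAPCD2. The sh-Scb median was 930 CPM per kilobase. RPS9, which encodes a small-subunit protein at the mRNA entry site, was listed far lower, at 16.7 CPM per kilobase in sh-Scb and 36.9 in sh-SAPCD2. The table also holds 8147 Ensembl identifiers with no name here, and whether any of them takes reads of RPS9 was not tested, so its values may cover part of its reads only.

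The P stalk, formed by RPLP0, RPLP1 and RPLP2, recruits elongation factors to the large subunit. RPLP1 measured 971, 909, 1084 and 1659 CPM (log2 fold change 0.55, SE 0.20, adjusted p = 0.0923 in edgeR's quasi-likelihood test), with both knockdown libraries above the controls and replicate 2 far above. RPLP2 measured 646, 650, 732 and 911 CPM (0.34, SE 0.13, adjusted p = 0.0955), in the same order. RPLP0, the base of the stalk, measured 1943, 1820, 1933 and 2575 CPM (0.26, SE 0.15, adjusted p = 0.239), with replicate 1 between the controls. None of the 3 stalk genes passed the test. The same held for the 5S RNP, which RPL5 and RPL11 form with 5S rRNA. RPL5 measured 720, 746, 820 and 945 CPM (0.27, SE 0.11, adjusted p = 0.115), and RPL11 measured 954, 982, 1092 and 1237 CPM (0.27, SE 0.10, adjusted p = 0.104). Both knockdown libraries lay above both controls for both genes, by more than the controls differed from each other.

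Other core genes of the large subunit varied in size of change, and none of those named here, chosen after their values were seen apart from RPL4 and RPL6, passed the test. RPL8, which lies next to the peptidyl transferase center, measured 982, 973, 1138 and 2028 CPM (log2 fold change 0.70, SE 0.25, adjusted p = 0.0933 in edgeR's quasi-likelihood test). RPL18 measured 280, 270, 347 and 541 CPM (0.69, SE 0.20, adjusted p = 0.0552), and RPL13 measured 843, 810, 991 and 1632 CPM (0.67, SE 0.22, adjusted p = 0.0764). In RPL8, RPL18 and RPL13 replicate 1 lay above the controls and replicate 2 far above replicate 1. RPL27 measured 554, 523, 660 and 973 CPM (0.60, SE 0.18, adjusted p = 0.0604), and RPL14 measured 673, 701, 814 and 844 CPM (0.27, SE 0.090, adjusted p = 0.0743). RPL14 differs from the others in that its knockdown libraries were close to each other. RPL6, by contrast, measured 1638, 1624, 1642 and 1609 CPM, a log2 fold change of −0.0047 (SE 0.085), and RPL4 measured 2685, 2654, 3009 and 3164 CPM (0.21, SE 0.085, adjusted p = 0.121).

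In the small subunit, RPS6, the substrate of the S6 kinases, measured 1947, 1945, 1975 and 1901 CPM, and the 4 libraries lay close together (log2 fold change −0.0059, SE 0.085, adjusted p = 0.968 in edgeR's quasi-likelihood test). RPS24 was as even, at 1252, 1255, 1265 and 1204 CPM (−0.022, SE 0.088). RPSA, known also as the laminin receptor precursor, measured 1248, 1230, 1172 and 1323 CPM (0.010, SE 0.099, adjusted p = 0.952), with the knockdown libraries on either side of the controls. RPS3, which lines the mRNA entry channel, showed that pattern on a larger scale, at 1844, 1744, 1722 and 3039 CPM (0.41, SE 0.25, adjusted p = 0.272). RPS2 measured 2083, 2076, 1633 and 2479 CPM (−0.017, SE 0.19, adjusted p = 0.96). RPS3A measured 1849, 1761, 1863 and 1994 CPM (0.095, SE 0.090, adjusted p = 0.475), with both knockdown libraries just above the controls.

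RPS28, RPS29 and RPS21, short proteins of the small subunit named here after their values were seen, had wide gaps between the knockdown libraries. RPS28 measured 178, 168, 177 and 431 CPM (log2 fold change 0.81, SE 0.37, adjusted p = 0.162 in edgeR's quasi-likelihood test), RPS29 measured 216, 216, 223 and 473 CPM, and RPS21 measured 208, 189, 196 and 419 CPM. In each of these genes replicate 1 was level with the controls and replicate 2 lay at more than 2 times their mean. RPS27A and FAU, which encode small-subunit proteins made as fusions with ubiquitin and a ubiquitin-like protein, measured 635, 586, 637 and 821 CPM (0.26, SE 0.14, adjusted p = 0.229) and 207, 203, 184 and 298 CPM (0.24, SE 0.22, adjusted p = 0.465). The calls of FAU and RPS2 turned with the knockdown library used. Without sh-SAPCD2 replicate 2, edgeR called FAU lower (−0.15, adjusted p = 0.0254) and RPS2 lower (−0.35, adjusted p = 0.00121). Without sh-SAPCD2 replicate 1 it called FAU higher (0.54, adjusted p = 0.000459) and RPS2 higher (0.25, adjusted p = 0.0024). After the correction for GC content and length, RPS2 was called lower (−0.25, adjusted p = 0.0381).

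The 2 called members with small-subunit names are unusual. RPS9 (chr19:54200809-54249003, plus strand, 5 exons) measured 9.16, 14.7, 20.6 and 32.0 CPM, from 253, 405, 521 and 1005 counts (log2 fold change 1.14, SE 0.30, adjusted p = 0.0383 in edgeR's quasi-likelihood test). Both knockdown libraries lay above the controls, and within each group replicate 2 lay well above replicate 1. RPS9 overlaps 6 other annotated genes, among them LILRB3 and LILRA6, and the fold change refers to the reads counted under this identifier alone. RPS19BP1 (chr22:39529093-39532761, minus strand, 4 exons) measured 31.2, 29.8, 43.7 and 60.02 CPM (0.77, SE 0.18, adjusted p = 0.0265), with no overlap between the groups.

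Of 7 tested paralog variants, 2 were called higher (RPL36AL and RPL3L) and 1 lower (RPL22L1). That is 42.9% in all, against 24.8% of all tested genes, from a list of only 7 genes. RPL22L1 (chr3:170864875-170870208, minus strand, 4 exons), the paralog of RPL22, measured 23.4, 23.2, 12.2 and 13.2 CPM and fell by 0.88 on the log2 scale (SE 0.14, adjusted p = 0.00917 in edgeR's quasi-likelihood test). Replicates within each group were nearly equal, and the knockdown libraries lay far under the controls. RPL22 itself measured 703, 699, 733 and 777 CPM (0.11, SE 0.090, adjusted p = 0.42). Per length, RPL22L1 stood at 4.23 and 4.22% of RPL22 in sh-Scb replicates 1 and 2 and at 2.11 and 2.15% in sh-SAPCD2 replicates 1 and 2. RPL22L1 was called lower in each alternative fit that was tried, including those without any 1 of the 4 libraries.

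RPL26L1, the paralog of RPL26, measured 31.1, 30.9, 19.4 and 24.5 CPM (log2 fold change −0.50, SE 0.16, adjusted p = 0.0649 in edgeR's quasi-likelihood test), and RPL39L, a paralog of RPL39 known from the testis, measured 19.2, 21.4, 11.1 and 17.5 CPM (−0.50, SE 0.23, adjusted p = 0.167). Their groups did not overlap, though neither passed the test. The partners lay on the other side of the controls, with RPL26 at 442, 439, 501 and 524 CPM (0.22, SE 0.091, adjusted p = 0.128) and RPL39 at 338, 310, 391 and 497 CPM (0.46, SE 0.14, adjusted p = 0.0583). RPL26L1 therefore went from 5.78 and 5.78% of RPL26 per length in sh-Scb to 3.17 and 3.83% in sh-SAPCD2, and RPL39L from 3.04 and 3.70% of RPL39 to 1.52 and 1.89%. The RPL26L1 start printed above lacks the pyrimidine stretch that RPL26 has.

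RPL36AL (chr14:49618530-49620626, minus strand, 2 exons), which encodes a protein nearly identical to that of RPL36A, went the other way. It measured 78.2, 78.1, 104 and 123 CPM (log2 fold change 0.54, SE 0.12, adjusted p = 0.0234 in edgeR's quasi-likelihood test), and RPL36A measured 634, 619, 632 and 607 CPM (−0.017, SE 0.090, adjusted p = 0.909). Per length RPL36AL rose from 13.9 and 14.2% of RPL36A to 18.6 and 22.9%. Reads shared between such near-identical copies, or between the other paralogs and their partners, could be split differently by the authors' counting. These ratios and those of the other pairs are therefore uncertain. RPL3L (chr16:1943974-1957606, minus strand, 10 exons), the paralog of RPL3 in heart and skeletal muscle, had 4, 9, 32 and 48 counts (2.55, SE 0.50, adjusted p = 0.0169). It remained at 0.0511% or less of RPL3 per length in every library, and RPL3 measured 2354, 2312, 2263 and 2649 CPM (0.074, SE 0.11, adjusted p = 0.639).

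RPL7L1 and RPL7 measured 305, 300, 316 and 302 CPM (log2 fold change 0.032, SE 0.092) and 1119, 1085, 1182 and 1311 CPM (0.18, SE 0.096, adjusted p = 0.223 in edgeR's quasi-likelihood test). RPS4Y1 and RPS4X measured 14.3, 9.96, 7.66 and 17.2 CPM (0.041, SE 0.39) and 999, 971, 969 and 1087 CPM (0.062, SE 0.099). Of 7 pairs, the paralog-to-partner ratio was lower in both knockdown libraries in 4 (RPL22L1, RPL26L1, RPL39L and, slightly, RPL7L1), higher in 2 (RPL36AL and RPL3L) and overlapping in 1 (RPS4Y1). Each ratio is taken within a library, so it does not depend on library scaling. The exact two-sided permutation p was 0.333, the smallest possible, in each pair whose groups did not overlap, and 1 for RPS4Y1.

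**Figure D4:**
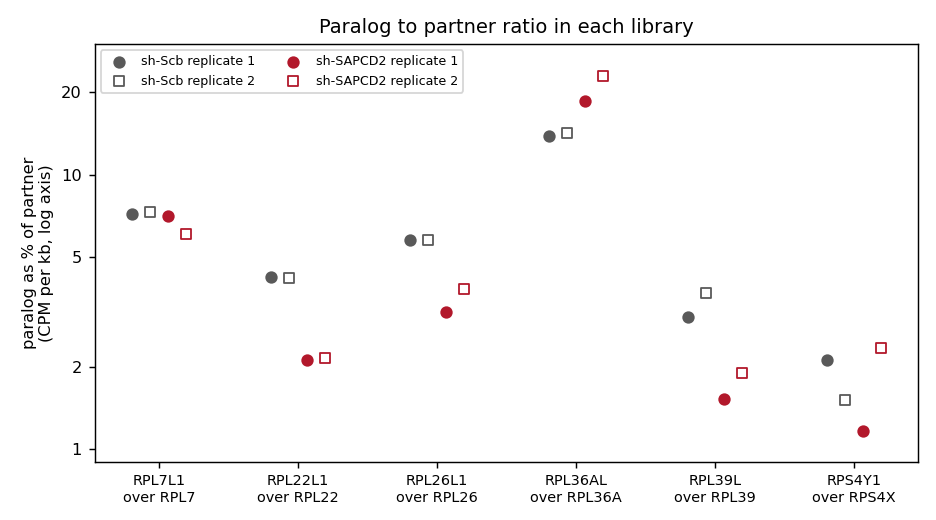
Level of a paralog as a percent of its partner (CPM per kilobase, log axis) in each of the 4 libraries, gray for sh-Scb and red for sh-SAPCD2, filled circles for replicate 1 and open squares for replicate 2; RPL3L over RPL3, at 0.0511% or less, is beyond the axis. RPL22L1 goes from 4.23 and 4.22% to 2.11 and 2.15%, RPL36AL lies higher in the knockdown libraries, and RPS4Y1 overlaps.

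GC content moved with the gap between the knockdown libraries. Across the 86 members, which share these libraries and are not independent replicates, replicate 2 minus replicate 1 of sh-SAPCD2 had a Pearson r of 0.43 (Spearman rho 0.49) with the GC content of the canonical transcript, and the log2 fold change had 0.38 (rho 0.32). Without sh-SAPCD2 replicate 2 the latter was 0.20 (rho 0.045). In the 29 members with the lowest GC content (39.9 to 45.5%) the median log2 fold change was 0.26, where other tested genes of that range had −0.084. The 28 in the middle (45.5 to 51.7%) had 0.19 against −0.014, and the 29 with the highest GC content (51.7 to 63.6%) had 0.40 against 0.14. The median of the members was the higher in each range. With each library corrected for GC content and transcript length, the member median was 0.27, with 31 members called higher (background 20.4%) and 4 lower (19.5%). The part of GC content in the difference between the groups was not tested beyond these values.

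**Figure D5:**
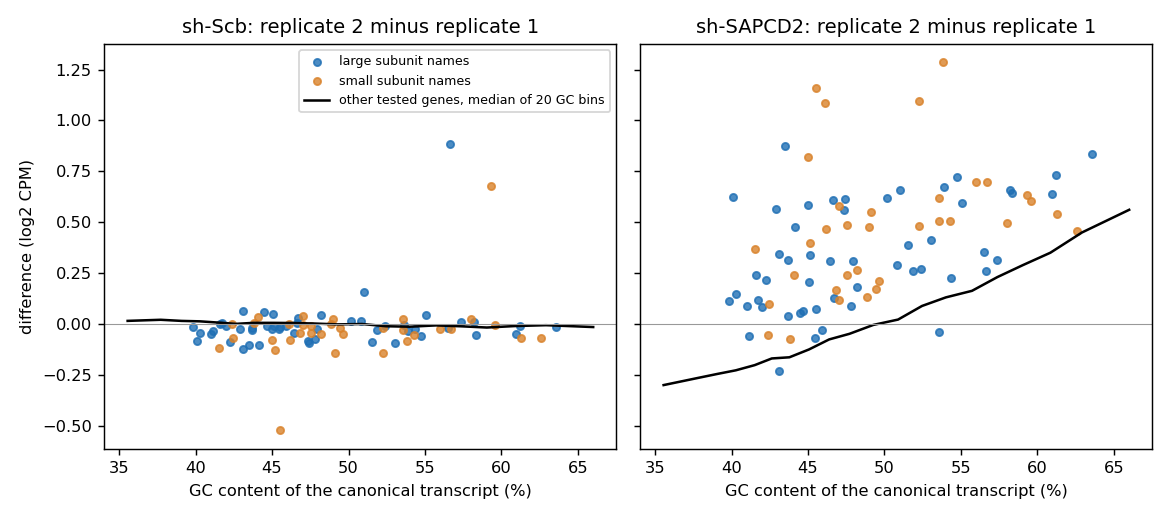
Replicate 2 minus replicate 1 (log2 CPM) of each ribosomal protein gene against the GC content (%) of its canonical transcript, for sh-Scb on the left and sh-SAPCD2 on the right; the line joins the medians of other tested genes in 20 bins of GC content. On the left the line and most points lie near 0, with RPL3L (0.88), RPS9 (0.68) and RPS4Y1 (−0.52) farther out. On the right the line climbs with GC content and most points lie above it.

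Copies and neighbors bear on how exact these counts can be. The table held 1601 annotated pseudogenes of 79 members, 675 of them with counts and 127 tested, and together they took 0.191, 0.185, 0.192 and 0.269% of all counts. They followed the order of the members' own share in sh-SAPCD2 replicate 2. Their counts came to 33.1% of those of RPS28, 20.5% of those of RPL7 and 16.7% of those of RPL36A. Adding these counts to the parent genes left 4 members called higher and 1 lower, where 4717 of all 18652 tested genes were called. For RPS18, which measured 241, 237, 281 and 392 CPM (log2 fold change 0.49, SE 0.16, adjusted p = 0.0761 in edgeR's quasi-likelihood test), 4 Ensembl identifiers with no name here carried counts within 3% of it in every library. The spans of 28 members hold, on the same strand, 60 genes of small nucleolar RNAs, which guide modification of ribosomal RNA. The median log2 fold change was 0.24 in these hosts and 0.28 in other members. Another annotated gene overlapped 42 members, which had a median of 0.22, and 0.31 was the median of those with no overlap.

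Lists of genes that work with ribosomal proteins had calls in both directions, and over the 190 tested genes of these lists, with the names that the rule leaves out, 25 were called higher and 21 lower, where 12.4% and 12.5% of all tested genes were. Among 20 translation factors and related genes whose mRNAs carry TOP tracts, the median log2 fold change was −0.0035, with EEF1G called higher (0.44) and HNRNPA1 and NPM1 called lower (−0.37 and −0.41) among 2 higher and 2 lower calls. RACK1, a scaffold on the small subunit, measured 1577, 1562, 1836 and 2133 CPM (0.34, SE 0.10, adjusted p = 0.061 in edgeR's quasi-likelihood test). Of 41 factors of large-subunit assembly 3 were called higher and 5 lower (median 0.12), with RRS1 at 1.08, NOP16 at 0.71 and NSA2 at −0.96. Of 56 factors of small-subunit assembly 8 were called higher and 6 lower (median 0.041), with RCL1 at 0.69, WDR3 at 0.54 and KRR1 at −1.08. Of 16 genes of the RNA polymerase I machinery, which transcribes ribosomal RNA, 2 were called higher (POLR1E 0.80, POLR1C 0.73) and 2 lower, among them UBTF (−0.57). Of 17 snoRNP proteins, GAR1 was called higher (0.48) and DKC1 lower (−0.37), and NOP10 had 0.52 (adjusted p = 0.0537).

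In the list of mTORC1 and LARP1, 5 of 31 genes were called higher and 4 lower (29.0% in all, beside 24.8% of all tested genes; median 0.12). Calls included SESN2 and DEPTOR, both inhibitors of mTOR signaling, at 2.05 and 1.65, and the translation repressors EIF4EBP1 and EIF4EBP2 at −0.79 and −1.03. Opposite to EIF4EBP1 and EIF4EBP2, EIF4EBP3 was called higher, at 1.55. The other higher calls were RRAGD (0.94) and RHEB (0.49), and the other lower calls were LARP7 (−0.68) and MTOR (−0.44). LARP1 measured 561, 547, 511 and 491 CPM (log2 fold change −0.15, SE 0.090, adjusted p = 0.278 in edgeR's quasi-likelihood test), and RPS6KB1, an S6 kinase, measured 53.03, 56.8, 78.6 and 61.9 CPM (0.35, SE 0.15, adjusted p = 0.129). Of the 13 tested names that the rule leaves out, 4 were called higher and 1 lower (38.5% in all, against 24.8%), with RPS6KC1 at 0.79, RPS6KA2 at 0.72 and RPS6KA3 at −0.95. RPS27L, a p53-responsive paralog of RPS27, measured 16.9, 17.8, 13.7 and 14.0 CPM (−0.33, SE 0.14, adjusted p = 0.141). The 78 tested mitochondrial ribosomal protein genes had a median log2 fold change of 0.082, with 5 called higher and 6 lower (14.1% in all, against 24.8%). MYCN was called higher (1.02, SE 0.11, adjusted p = 0.00378), and its part in the levels of ribosomal protein genes was not tested.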

How the data were processed

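Per the labels and the study's methods, reads (paired, 150 bp) went through HISAT2 2.2.0 on hg38 and StringTie 2.1.2, and the authors deposited unscaled integer counts for Ensembl gene identifiers. How counts were made from alignments, their strand setting and the use of multi-mapped reads are not given in the sources used here. Groups followed the shRNA in the labels. Names, positions and GC content came from GENCODE 44. Counts were filtered with filterByExpr (minimum count 10, minimum total 15), scaled by TMM and tested with edgeR 4.0.16 in R 4.3.3. Log2 CPM used a prior count of 2. Summaries used Python 3.11.15 and scipy 1.17.1.

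Members and gene lists were chosen with earlier results of these data known. Named are called members, the 6 highest per length, the P stalk, 5S RNP, fusion genes, paralogs and partners, RPS6, RPS3, RPSA, RPS27L, RPS6KB1, LARP1, RACK1, EIF4EBP1, MYCN, and the 3 smallest p of other lists. Any further gene was chosen after values were seen, and 1 gene of the lists is not reported here. The fits were tested on simulated data. Alternatives were DESeq2 1.42.0, other scalings, other filters, the replicate block, a loess correction (span 0.3) for GC content and length, pseudogenes added, other thresholds, other totals for the share, and each library left out. Fibroblast markers (6 tested) had 1 call higher and 1 lower.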

Additional observations from a re-analysis of the deposited data

How the results depend on the processing

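The count of members called depended on the setting. Against 4 higher and 1 lower with 2 higher DEGs, DESeq2 gave 18 higher with 1 higher DEG, no filter on low counts gave 1 higher (3.09% of all genes) and 1 higher DEG, a mean of at least 1 CPM gave 1 higher DEG, and the correction for GC content and length gave 31 higher, 4 lower and 1 higher DEG. At an unadjusted p under 0.05 there were 26 higher and 2 lower, where 39.4% of all tested genes passed in either direction. At an adjusted p under 0.01 there were 0 higher and 0 higher DEGs. Shares over all genes are not given here for that threshold, nor for DEGs in the alternative settings. Without the paralog variants, RPS19BP1 and RPS9, a choice made after the values were seen, edgeR gave 0 higher, 0 lower and 0 higher DEGs, with 22 at an unadjusted p under 0.05. Leaving out single libraries, the counts ran from 1 to 69 higher, from 1 to 11 lower and from 0 to 6 higher DEGs, and the member median from 0.058 without sh-SAPCD2 replicate 2 to 0.44 without replicate 1. Leaving out sh-Scb replicate 1 gave 1 higher, RPS28, and 0 higher DEGs, and leaving out sh-Scb replicate 2 gave 2, RPL3L and RPS9. The share difference ran from 0.175 to 1.82 percentage points. SAPCD2 kept its direction, but without a filter on low counts its adjusted p in edgeR was 0.0749 (log2 fold change −0.91), and with libraries left out it ran from −1.23 to −0.67. Among the other translation genes, 25 higher and 21 lower calls became 13 and 6 without a filter, 61 higher after the GC correction, and 6 to 69 higher and 6 to 46 lower with libraries left out. Calls over all tested genes moved the same way in the fits without a filter and with the GC correction. In the report 12.4% were called higher and 12.5% lower. Without a filter 3.09% of 34935 genes were called higher and 3.38% lower, and after the GC correction 20.4% were called higher. The causes were not tested.

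With the replicate number as a block, edgeR called 20 members higher (15.2% of all genes), 3 lower (14.4%; RPL22L1, RPL26L1 and RPL39L) and 2 higher DEGs. The block with the GC correction gave 40 higher (20.3%), 3 lower (19.1%) and 1 higher DEG, and 61 other translation genes higher. The numbers were not treated as pairing the libraries, since the correlation of same-numbered deviations was −0.019 over 2 pairs.

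Fold changes near 0 changed sign. Against the values in the report, DESeq2 gave 0.010 for RPS6, 0.0011 for RPS2 and 0.011 for RPL6, library totals gave −0.0091 for RPSA, the block gave −0.041 for RPS4Y1, and added pseudogenes gave 0.0063 for RPL6. The GC correction, alone and with the block, gave 0.097 and 0.097 for RPL36A, 0.12 and 0.12 for RPS6, and 0.045 and 0.045 for RPL6. With libraries left out, log2 fold changes ran from −0.66 to 0.50 for RPS4Y1, from −0.35 to 0.25 for RPS2, from −0.15 to 0.54 for FAU, from −0.058 to 0.75 for RPS3, from −0.078 to 0.089 for RPSA, from −0.043 to 0.18 for RPL3, from −0.021 to 0.14 for RPS4X, from −0.039 to 0.023 for RPS6, from −0.052 to 0.014 for RPL36A, from −0.025 to 0.012 for RPL6 and from −0.0068 to 0.067 for RPL7L1. Depth limits RPL3L, at 4 and 9 control counts. Each group has 2 libraries, none of which the labels tie to a separate culture, and the sh-SAPCD2 libraries differ from each other.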
